A study of Mus musculus with 12 samples.

Results

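Molecular chaperones keep newly made and stress-damaged proteins folded. The 10 genes described here encode the abundant members of the HSP90, HSP70, HSP110, HSP40 and chaperonin families that work in the cytosol (*Hsp90aa1*, *Hsp90ab1*, *Hspa8*, *Hsph1*, *Dnaja1*), the endoplasmic reticulum (*Hsp90b1*, *Hspa5*) and mitochondria (*Hspa9*, *Hspd1*, *Hspe1*). HSP70 proteins bind unfolded stretches and are loaded by HSP40 (J-domain) partners and unloaded by nucleotide exchange factors, HSP90 then finishes the folding of kinases and receptors, and the HSP60 and HSP10 chaperonin encloses proteins inside mitochondria. In lymphocytes the same families help to mature signalling kinases and to meet the rise in protein synthesis that follows activation. The genes were listed by name from these families, and they were chosen with their measured levels in these same libraries already known, so their differences between groups are given as a description, with no p-value printed for a member. Where members past the threshold of a fit over all genes are counted, the share of all genes past it stands beside the count. They are 10 of the 56691 mouse genes in the count table, and all 10 passed the filter of at least 30 reads summed over the 12 samples.

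Responder T cells were sorted from the spleens of 12 mice of the line Tg4 *Nr4a3*-Tocky *Il10*-GFP. There were 4 groups of 3 mice and 1 library per mouse. Tg4 mice carry a transgenic T cell receptor for a myelin basic protein peptide, and Tocky mice make a Timer protein from *Nr4a3* control sequences that is first blue and then red. Mice of both sexes were used, typically 6 to 8 weeks old, and all, including the controls, were primed with [4Y]-MBP peptide at 4 mg/kg and given 0.4 mg/kg again 30 min after the antibodies. The antibodies came 24 h after priming: a rat IgG1 and IgG2a pool (isotype), anti-Lag3, anti-PD-L1 or both antibodies together (co-blockade, CB). Spleens were taken 12 h after the second peptide dose, and CD4+ cells with both Timer colours were sorted, so all 4 groups were gated to cells with both forms. In each sort the 4 treatments carried CD4 antibodies with different fluorochromes, and this label and the treatment cannot be told apart. A higher value in these bulk samples can come from more cells that express a gene or from more RNA per cell, and these cannot be told apart.

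Libraries held between 16449370 and 22151025 reads on genes. Levels are given as CPM, the reads of a gene per 1000000 reads of its library, scaled with TMM factors. Reads were primed at the 3′ end of mRNA, so CPM carries no term for transcript length. Of the 8 CD4 T cell markers all were detected in every group, with a summed level of 2743 to 2866 CPM in the isotype mice and 2427 to 2519 CPM in the CB mice. Markers of other lineages were mostly low, with *Cd79a* at no more than 1.11 CPM and *Cd8a* at no more than 3.24 CPM in any library. However, *Cd8b1* was at 24.4 to 46.4 CPM and *Ighm* at 322.6 to 412.1 CPM. Summed myeloid markers came to 5.56 to 12.1 CPM in isotype, 5.34 to 9.19 with anti-Lag3, 14.3 to 23.2 with anti-PD-L1 and 5.6 to 7.61 with CB, so the anti-PD-L1 mice lay above all others. Those of CD8 T and NK cells came to 43.4 to 47.9 CPM in isotype, 33.9 to 49.1 with anti-Lag3, 27.2 to 36.9 with anti-PD-L1 and 34.5 to 38.3 with CB. In this sum the anti-PD-L1 and CB mice lay below the isotype mice. The sum was mostly *Cd8b1*, and no other gene of the list exceeded 6.92 CPM. For CB against isotype, *Cd8b1* (log2 fold change -0.5), *Cd8a* (-0.94) and *Ncr1* (-0.52) were below 0. *Klrb1c* (2.2), *Klrk1* (1.5) and *Eomes* (1.1) were above 0, and none of these genes was called. Red blood cell genes moved with the groups in the opposite direction to the chaperones: all 6 were detected, and their summed level ran from 240.7 to 450.8 CPM in isotype, 215.5 to 289.3 in anti-Lag3, 170.7 to 217.5 in anti-PD-L1 and 149.7 to 198.2 in CB. The part of these 3 marker lists in the results was not tested.

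The chaperone promoters that matched the RefSeq windows of GRCm38.p6, from 250 bases before to 50 bases after a transcription start, carried the elements that heat shock factors and the ER stress response are known to read. Windows were found for 6 of the 10 genes (*Hspd1*, *Hspe1*, *Hspa5*, *Dnaja1*, *Hsph1* and *Hsp90b1*). The other 4 were *Hsp90aa1*, *Hsp90ab1*, *Hspa8* and *Hspa9*. A heat shock element core, here the unit GAA and its inverse TTC in either order with any 2 bases between them, was present in 4 of the 6 genes (*Hspd1*, *Hspe1*, *Hsph1* and *Dnaja1*), against 4587 of the 27025 genes with a window. Runs of 3 such alternating units, which contain the core, were present in 3 of the 6 (*Hspd1*, *Hspe1* and *Hsph1*), against 0.662% of genes. The ER stress element, CCAAT and CCACG separated by 9 bases, was present in *Hspa5* and *Hsp90b1*, against 0.137% of genes. Both strands were searched, and a match describes the letters only. The 30-base stretches below hold every match of these elements in 1 window per gene, since they separate the members into 2 kinds of promoter. They are written 5′ to 3′ on the strand of the gene, with the letters of the element in capitals.
Hspe1 (chr1:55088053-55088082, plus strand): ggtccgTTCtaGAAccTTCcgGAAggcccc
Hspd1 (chr1:55088053-55088082, minus strand): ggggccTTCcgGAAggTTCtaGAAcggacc
Hsph1 (chr5:149636287-149636316, minus strand): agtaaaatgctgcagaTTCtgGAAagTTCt
Hsph1 (chr5:149636351-149636380, minus strand): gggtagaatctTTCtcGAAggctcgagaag
Dnaja1 (chr4:40722333-40722362, plus strand): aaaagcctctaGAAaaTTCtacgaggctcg
Hspa5 (chr2:34772020-34772049, plus strand): cttcaCCAATcggaggcctCCACGacgggg
Hsp90b1 (chr10:86705632-86705661, minus strand): caagcCCAATcgcaaggagCCACGcttcgg
Hsp90b1 (chr10:86705527-86705556, minus strand): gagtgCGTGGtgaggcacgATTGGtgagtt
The *Hspe1* and *Hspd1* lines are the 2 strands of 1 stretch, since these genes lie head to head and the windows of *Hspe1* and of an alternative *Hspd1* start share 285 bases. The other *Hspd1* window shares 4 bases with that of *Hspe1* and holds none of these elements. Counted from the *Hspe1* start, the 18-base run of alternating units begins at base -89. The *Hsph1* run of 3 units lies after the start, from base 37 to base 49, and the single core begins at base -33. *Dnaja1* has 1 core, from base -124 of 1 window, and its other windows hold none. The element of *Hspa5* begins at base -65, and those of *Hsp90b1* at bases -212 and -107, the second on the opposite strand.

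The comparison of CB with isotype asks how sorted responder cells differ when both pathways were blocked before the second peptide dose. Which cells respond can itself depend on the treatment. All 10 chaperones had a log2 fold change above 0, with a median of 0.45 and a range of 0.14 to 0.72, where the median of all 15138 genes tested was 0.00. In the quasi-likelihood test of edgeR, adjusted over all genes by Benjamini-Hochberg, 6 of the 10 were called, all higher in CB: *Hsp90aa1*, *Hsp90ab1*, *Hsph1*, *Hspa5*, *Hspa9* and *Hspe1*. The background is 2.33% of genes called higher (353 genes) and 1.96% called lower. Among the 1672 genes with a mean of at least 100 CPM, which is the range of these chaperones, 9.51% were called higher. DESeq2 called 8 of the 10 (these and *Hspa8* and *Hspd1*), against 3.06% of genes called higher. Nothing is read from the counts of members in this or any other comparison, since the genes were chosen on this contrast and with the levels of all groups known. Every CB mouse was above every isotype mouse for 8 of the 10, the exceptions being *Dnaja1* and *Hsp90b1*, against 10.4% of all genes. Every CB mouse was above all 9 other mice for 5 (*Hsp90aa1*, *Hsp90ab1*, *Hspa5*, *Hspa9* and *Hspe1*), against 2.35% of all genes. With the samples numbered 1 left out of all groups, an alternative chosen after the data were seen, 6 chaperones were called. Over all genes 330 were called in that fit in either direction, against 649 in the main fit.

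**Figure D1:**
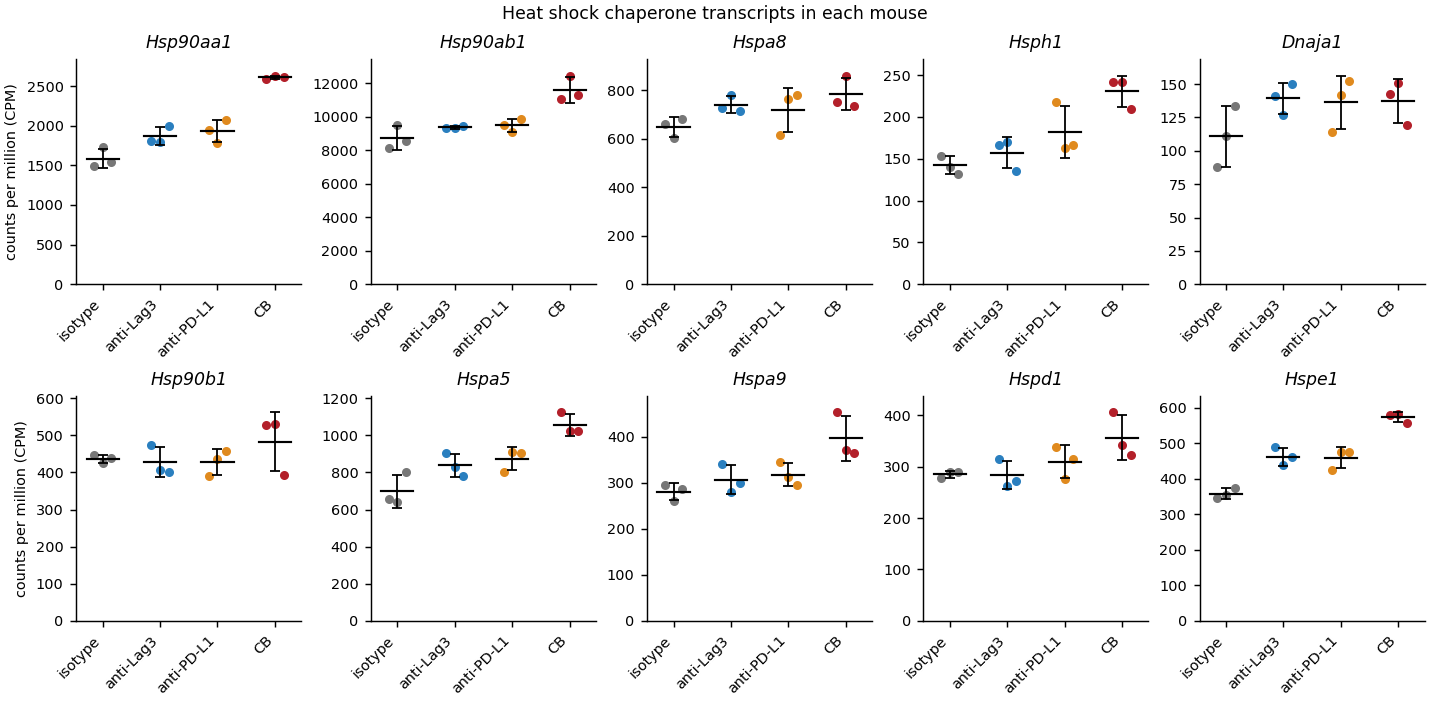
TMM-scaled CPM (vertical axes, from 0) of the 10 chaperones in each mouse, by group. Points are mice, horizontal lines are means and bars are SDs (n = 3 per group). The 3 CB mice lie above all other mice for *Hsp90aa1*, *Hsp90ab1*, *Hspa5*, *Hspa9* and *Hspe1*, and they overlap isotype for *Dnaja1* and *Hsp90b1*.

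The TMM-scaled CPM of the 10 genes were summed and are given as a percentage of the number of reads that defines CPM. Scaled CPM need not add up to that number in each library, so this is not an exact share of reads. The summed level was 1.33% ± 0.0771 (SD, n = 3) in isotype, 1.46% ± 0.0158 in anti-Lag3, 1.48% ± 0.058 in anti-PD-L1 and 1.82% ± 0.0831 in CB. The single mice ran from 1.25% to 1.41% in isotype and from 1.76% to 1.92% in CB. *Hsp90ab1* alone supplied 61.8% to 67.6% of this sum in each mouse. The sum therefore mostly follows that gene, and the members are given one by one below.

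The cytosolic HSP90 pair had the highest counts of the 10. *Hsp90aa1* (chr12:110690605-110702728, minus strand, GRCm38) encodes HSP90 alpha, the form that cells raise under stress. Its level was 1492, 1725 and 1537 CPM in the isotype mice, 1809, 1799 and 2002 CPM with anti-Lag3, 1949, 1786 and 2071 CPM with anti-PD-L1, and 2587, 2623 and 2619 CPM with CB. Both single antibodies lay above isotype and below CB in every mouse, and their own ranges overlapped each other. The log2 fold change of CB against isotype was 0.72 ± 0.072 (SE), a 1.65-fold difference, and CB differed by 0.43 ± 0.072 from anti-PD-L1 and by 0.48 ± 0.072 from anti-Lag3.

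*Hsp90ab1* (chr17:45567775-45573271) encodes HSP90 beta, the constitutive form. Its level was 8105, 9508 and 8550 CPM in isotype, 9320, 9310 and 9453 CPM with anti-Lag3, 9512, 9072 and 9853 CPM with anti-PD-L1, and 11028, 12437 and 11286 CPM with CB. The single antibodies overlapped the isotype mice, and all CB mice lay above them. CB differed from isotype by 0.41 ± 0.056 on the log2 scale, from anti-PD-L1 by 0.29 ± 0.056 and from anti-Lag3 by 0.31 ± 0.056. The balance of the 2 forms also differed between groups. The ratio of *Hsp90ab1* to *Hsp90aa1* was 5.43 to 5.56 across the isotype mice, 4.72 to 5.18 with anti-Lag3, 4.76 to 5.08 with anti-PD-L1 and 4.26 to 4.74 with CB. All treated mice were below all isotype mice in this ratio, and CB overlapped anti-Lag3 narrowly. For this and the other ratios below, the share of other gene pairs that separate the groups in this way was not computed, so nothing is read from the separation.

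**Figure D2:**
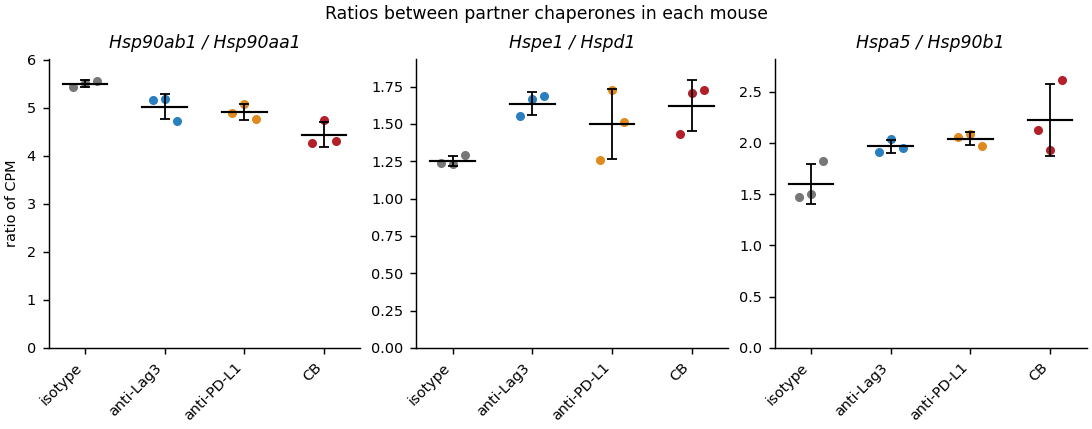
Ratios of CPM between partner chaperones (vertical axes, from 0) in each mouse, by group, with means and SDs (n = 3). *Hsp90ab1* to *Hsp90aa1* runs from 5.43 to 5.56 in isotype and from 4.26 to 4.74 in CB, while *Hspe1* to *Hspd1* runs from 1.23 to 1.29 in isotype and from 1.43 to 1.73 in CB.

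The cytosolic HSP70 machine was less uniform. *Hsph1* (chr5:149614287-149636376), an HSP110 protein that exchanges nucleotide on HSP70 and helps to dissolve aggregates, was at 153.7, 140.2 and 132.3 CPM in isotype and at 241.6, 241.1 and 209.5 CPM in CB. With anti-Lag3 it was at 166.5, 169.4 and 135.6 CPM. With anti-PD-L1 it was at 218.3, 162.5 and 166.7 CPM, and the first of these mice lay within the CB range. The log2 fold change of CB was 0.70 ± 0.13 over isotype, 0.34 ± 0.13 over anti-PD-L1 and 0.55 ± 0.13 over anti-Lag3. The call against anti-Lag3 was lost when any 1 mouse of either group was left out.

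*Hspa8* (chr9:40800984-40810087) encodes HSC70, the constitutive HSP70 of the cytosol. Its level was 659.2, 603.9 and 682.4 CPM in isotype, 727.7, 782.4 and 713.7 CPM with anti-Lag3, 616.0, 763.5 and 782.3 CPM with anti-PD-L1, and 753.2, 860.1 and 737.4 CPM with CB. CB mice were above isotype mice but overlapped both single antibodies. The difference from isotype, 0.27 ± 0.093 on the log2 scale, was not called by edgeR and was called by DESeq2. The ratio of *Hsp90aa1* to *Hspa8* was 2.25 to 2.86 in isotype, 2.3 to 2.8 with anti-Lag3, 2.34 to 3.16 with anti-PD-L1 and 3.05 to 3.55 with CB. In this ratio both single antibodies overlapped isotype, and CB lay above isotype. *Dnaja1* (chr4:40722150-40737149), a J-protein that delivers clients to HSC70, showed the widest spread for its level. *Dnaja1* was at 87.7, 111.4 and 133.6 CPM in isotype, 141.3, 127.2 and 150.2 CPM with anti-Lag3, 114.2, 142.2 and 152.7 CPM with anti-PD-L1, and 142.8, 150.6 and 119.0 CPM with CB. All 4 groups overlapped, and the log2 fold change of CB against isotype was 0.31 ± 0.15. Its last 608 bases lie over the end of *Smu1* on the opposite strand, a gene with 30708 reads against 30540 for *Dnaja1*. The strand setting used in counting is not given in the sources used here, so reads from this stretch cannot be told apart if strand was not used.

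The 2 members of the endoplasmic reticulum, where secreted and surface proteins fold, did not behave alike. *Hspa5* (chr2:34771970-34777547) encodes BiP, the HSP70 of this compartment. It was at 654.8, 638.3 and 800.8 CPM in isotype, 904.2, 831.8 and 781.6 CPM with anti-Lag3, 801.3, 912.1 and 905.3 CPM with anti-PD-L1, and 1124, 1026 and 1022 CPM with CB. All CB mice were above all other mice, while the anti-Lag3 mice overlapped isotype through 1 mouse. The log2 fold change of CB was 0.60 ± 0.091 over isotype, 0.28 ± 0.09 over anti-PD-L1 and 0.33 ± 0.09 over anti-Lag3, and edgeR called only the first. *Hsp90b1* (chr10:86690209-86705509) encodes GRP94, the HSP90 of the same compartment, which folds integrins and Toll-like receptors. It was at 446.7, 424.9 and 439.8 CPM in isotype, 474.1, 406.9 and 400.7 CPM with anti-Lag3, 389.6, 436.5 and 458.7 CPM with anti-PD-L1, and 527.1, 530.3 and 391.9 CPM with CB. CB mouse 3 lay below every isotype mouse, and CB mice 1 and 2 lay above all mice of the other groups. Its log2 fold change of 0.14 ± 0.11 was the lowest of the 10. *Hspa5* and *Hsp90b1* both carry an ER stress element in the stretches shown above. Their ratio was 1.47 to 1.82 in isotype, 1.91 to 2.04 with anti-Lag3, 1.97 to 2.09 with anti-PD-L1 and 1.93 to 2.61 with CB. Every treated mouse was above every isotype mouse in this ratio, again with no share of other gene pairs to set beside it. A transcribed pseudogene on the opposite strand over *Hsp90b1* had 2422 reads, against 103264 for *Hsp90b1*.

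In mitochondria, *Hspa9* (on chromosome 18) encodes mortalin, the HSP70 that pulls imported proteins inward. It was at 294.9, 260.5 and 287.7 CPM in isotype, 341.4, 279.8 and 300.6 CPM with anti-Lag3, 345.2, 313.0 and 296.6 CPM with anti-PD-L1, and 453.6, 371.9 and 365.2 CPM with CB. All CB mice were above the other 9, with CB mouse 1 well above the other CB mice. The log2 fold change against isotype was 0.50 ± 0.11, and without CB mouse 1 the difference was no longer called.

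*Hspd1* (chr1:55077835-55088243) and *Hspe1* (chr1:55088132-55091307) encode HSP60 and HSP10, the barrel and the lid of the mitochondrial chaperonin. *Hspe1* was at 345.0, 356.0 and 375.0 CPM in isotype, 489.1, 438.1 and 461.4 CPM with anti-Lag3, 426.2, 476.7 and 476.6 CPM with anti-PD-L1, and 581.0, 582.4 and 557.4 CPM with CB. The single antibodies lay between isotype and CB with no overlap on either side. *Hspd1* was at 277.1, 288.9 and 290.0 CPM in isotype, 314.9, 262.9 and 272.9 CPM with anti-Lag3, 337.9, 275.4 and 315.6 CPM with anti-PD-L1, and 405.7, 341.4 and 322.7 CPM with CB. CB mice lay above isotype mice but overlapped anti-PD-L1. The log2 fold change of CB against isotype was 0.68 ± 0.087 for *Hspe1* and 0.32 ± 0.11 for *Hspd1*, and edgeR called only the former while DESeq2 called both. The genes lie head to head, as described above. The *Hspe1* to *Hspd1* ratio was 1.23 to 1.29 in isotype and 1.55 to 1.69 with anti-Lag3. It was 1.26 to 1.73 with anti-PD-L1 and 1.43 to 1.73 with CB. The anti-Lag3 and CB mice were above all isotype mice, and 1 anti-PD-L1 mouse overlapped them. The genes themselves overlap by their first bases only (chr1:55088132-55088243), away from the 3′ ends that the libraries sample.

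Genes and pseudogenes at least 90% identical over 300 bases to a member held few reads. Their reads came to at most 0.742% of those of the member (*Hspe1*) and to 0.586% for *Hsp90aa1*. The sources used here describe the counted reads as uniquely mapped, so reads that could not be placed between copies are not in these values.

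The single antibodies were compared with isotype to separate the contribution of each pathway. With anti-PD-L1, 9 of the 10 chaperones had a log2 fold change above 0, with a median of 0.23, and with anti-Lag3 8 of 10 did, with a median of 0.17. edgeR called none of the 10 in either comparison, against backgrounds of 0.033% and 0.0% of genes called higher. At an unadjusted p under 0.05 there were 5 in each, against shares of all genes, in either direction, of 7.84% for anti-PD-L1 and 5.21% for anti-Lag3. DESeq2 called 3 with anti-PD-L1 (*Hsp90aa1*, *Hspa5* and *Hspe1*), against 0.205% of genes called higher, and 1 with anti-Lag3 (*Hspe1*), against 0.033%. Every anti-PD-L1 mouse was above every isotype mouse for 5 chaperones (*Hsp90aa1*, *Hsph1*, *Hspa5*, *Hspa9* and *Hspe1*), against 5.34% of all genes. The same held with anti-Lag3 for 3 (*Hsp90aa1*, *Hspa8* and *Hspe1*), against 5.25%. Both sets are compared with the same isotype mice, and nothing is read from these counts, for the reason given above. Against each other, the 2 antibodies gave a median log2 difference of 0.03 over the chaperones, with a range of -0.04 to 0.22. edgeR and DESeq2 each called 0 of the 10, against 0.0% and 0.00661% of genes called higher. None had an unadjusted p under 0.05, against 4.69% of all genes.

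**Figure D3:**
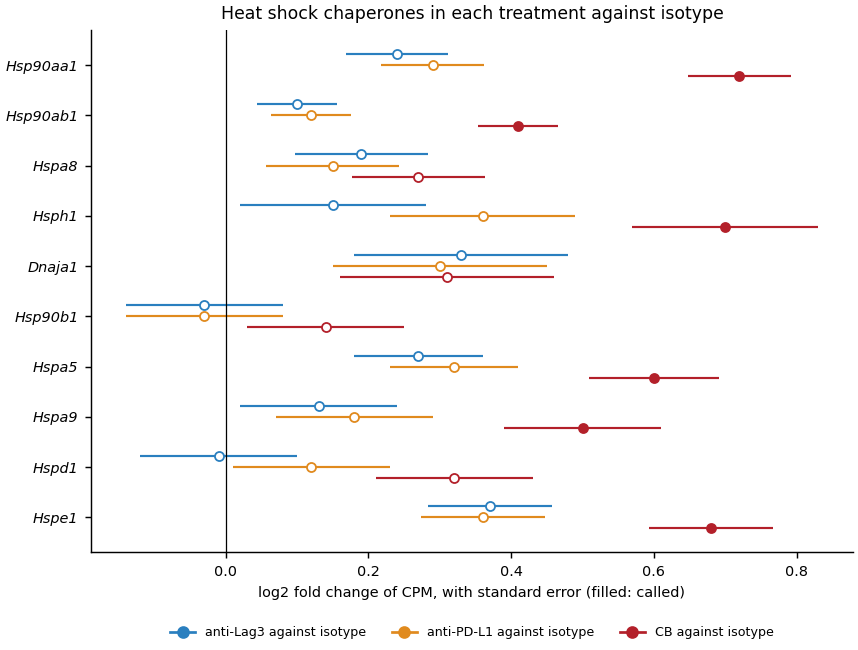
Log2 fold change against isotype (horizontal axis) with its standard error, for each chaperone and treatment. Filled points were called by edgeR across all genes. The 6 filled points all belong to CB, and for *Dnaja1* the 3 treatments lie together, from 0.30 to 0.33.

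CB was also set against each single antibody. Against anti-PD-L1 all 10 chaperones were above 0, with a median of 0.28, and edgeR called *Hsp90aa1* and *Hsp90ab1*, against 0.205% of genes called higher. Both calls were lost when CB mouse 3 or anti-PD-L1 mouse 2 was left out, and that of *Hsp90ab1* also without CB mouse 2. Against anti-Lag3, 9 of 10 were above 0, with a median of 0.32, and *Hsp90aa1*, *Hsp90ab1* and *Hsph1* were called, against 0.39% of genes. DESeq2 called 3 chaperones against anti-PD-L1, where 0.575% of genes were called higher, and 6 against anti-Lag3, where 0.958% were.

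The interaction is the log2 change with CB less the sum of the log2 changes with each antibody. A value of 0 means that the log2 changes add, so that the fold changes multiply. Above or below the sum is meant on this scale, and it need not hold for differences in CPM. For 7 of the 10 chaperones CB was above the sum. The values were 0.19 ± 0.10 for *Hsp90aa1*, 0.19 ± 0.08 for *Hsp90ab1*, 0.19 ± 0.18 for *Hsph1*, 0.21 ± 0.15 for *Hsp90b1*, 0.01 ± 0.13 for *Hspa5*, 0.19 ± 0.15 for *Hspa9* and 0.21 ± 0.15 for *Hspd1*. For *Hspe1* (-0.05 ± 0.12), *Hspa8* (-0.07 ± 0.13) and *Dnaja1* (-0.32 ± 0.21) CB was below the sum. For *Hspe1* the single antibodies gave 0.36 and 0.37, and CB gave 0.68. edgeR and DESeq2 called none of the 10, against 0.0% and 0.00661% of genes called higher. At an unadjusted p under 0.05 there was 1 (*Hsp90ab1*), against 5.93% of genes in either direction. Nothing is read from this count, since the members were chosen with these levels known.

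The partner genes of the chaperones were taken from lists chosen with earlier results of these data known. They are described by how many were called between CB and isotype in edgeR's fit. Over the 6 lists 95 of 98 genes could be tested, 14 were called higher and 0 lower, and 68 had a log2 fold change above 0. The share of all genes called higher was 2.33%, and 9.51% of those with a mean of at least 100 CPM. The co-chaperones that steer the HSP90 cycle contributed 5 of 18 (median 0.23). These were *Ppid* (cyclophilin 40), from 102.1 ± 15.3 to 158.3 ± 14.4 CPM (log2 fold change 0.63 ± 0.13, adjusted p = 0.00385), and *Ahsa1* (AHA1, which stimulates the HSP90 ATPase), from 57.3 ± 9.99 to 85.7 ± 10.7 CPM (0.58 ± 0.16, adjusted p = 0.031). *Stip1* (HOP, which passes clients from HSP70 to HSP90) differed by 0.45 ± 0.12 (adjusted p = 0.0353), *Ptges3* (p23, which stabilises the closed form) by 0.43 ± 0.12 (adjusted p = 0.0263) and *Chordc1* by 0.42 ± 0.11 (adjusted p = 0.0292). In all 5 the CB mice lay above the isotype mice. Only *Ppid* stayed called whichever mouse was left out. The list held 1 call without CB mouse 1, 3 without CB mouse 3, 2 without any 1 isotype mouse and 0 without the samples numbered 1.

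The J-proteins and exchange factors of HSP70 contributed 4 of 22 (median 0.27), against 2.33% of all genes called higher and 9.51% of those with a mean of at least 100 CPM. *Hspa4*, an HSP110 relative of *Hsph1*, went from 304.9 ± 15.5 to 438.7 ± 23.2 CPM (0.53 ± 0.10, adjusted p = 0.00213). *Dnajc2*, a J-protein bound to ribosomes, went from 238.5 ± 14.7 to 365.2 ± 26.2 CPM (0.61 ± 0.11, adjusted p = 0.00102), *Dnajc21*, which acts in ribosome assembly, from 51.6 ± 13.5 to 87.6 ± 7.39 CPM (0.76 ± 0.17, adjusted p = 0.00604), and *Hspa14*, also bound to ribosomes, from 116.5 ± 17.1 to 158.8 ± 19.7 CPM (0.45 ± 0.13, adjusted p = 0.0411). A second annotated gene shares 8264 bases with *Hspa14* on the same strand and had 1593 reads, against 32240. *Dnajc2* and *Hspa4* stayed called whichever mouse was left out, and 3 of the list (*Dnajc2*, *Hspa4* and *Hspa14*) without the samples numbered 1.

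The counts of the next lists stand against the same shares, 2.33% of all genes and 9.51% of those with a mean of at least 100 CPM. Of the cytosolic chaperonin TRiC, which folds actin and tubulin, all 8 subunits were above 0 (median 0.26) and 2 were called. These were *Cct6a*, from 322.4 ± 17.8 to 457.2 ± 21.2 CPM (0.50 ± 0.10, adjusted p = 0.00269), and *Cct3*, from 301.3 ± 12.1 to 391.8 ± 47.7 CPM (0.38 ± 0.11, adjusted p = 0.0409). *Cct3* lost its call without CB mouse 1 or 3, any 1 isotype mouse or anti-Lag3 mouse 2, and *Cct6a* kept it in each of these. In the ER list 2 of 22 were called (median 0.24): *Calr*, the calcium-binding lectin chaperone calreticulin (0.41 ± 0.086, adjusted p = 0.00435), and *Atf4*, a transcription factor of the integrated stress response (0.56 ± 0.12, adjusted p = 0.00569). Among the mitochondrial chaperones and proteases 1 of 14 was called (median 0.33), the import receptor *Tomm70a* (0.58 ± 0.12, adjusted p = 0.00325). *Atf4* lost its call without CB mouse 3 or isotype mouse 1, and neither list kept a call without the samples numbered 1.

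A last list holds stress-inducible chaperones together with the factors *Hsf1*, *Hsf2* and *Hsbp1*, which regulate the heat shock response. Of the 14 genes of this list 11 could be tested, and edgeR and DESeq2 called none. At an unadjusted p under 0.05 in edgeR there was 1 (against 14.9% of all genes), and the median log2 fold change was -0.03. *Hspa1a* had reads in 4 of the 12 libraries and no more than 1.93 CPM in any, and *Hspa1b* had no more than 2.32 CPM. They encode inducible HSP70 and are near-identical, so uniquely mapped reads can understate both. The log2 fold change of *Hspa1a* was -0.03 ± 2.8, the same value as the list median, so that median rests on a gene with few reads. *Hspb1*, the small heat shock protein HSP27, had 0 reads in all 12 libraries, as had *Hspa1l* and *Cryab*, where the 3 reads that a count of 0 allows correspond to 0.135 to 0.182 CPM, a limit for counting error only. *Hsf1*, the main heat shock transcription factor, was at 22.2 ± 3.63 CPM in isotype and 17.5 ± 4.54 CPM in CB (-0.34 ± 0.28, adjusted p = 0.637). *Dnajb1*, the inducible J-protein, was at 73.0 ± 2.84 and 85.1 ± 3.9 CPM (0.22 ± 0.14, adjusted p = 0.473). All CB mice (80.9 to 88.6 CPM) lay above all isotype mice (71.3 to 76.3 CPM) for this gene, although it was not called.

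**Figure D4:**
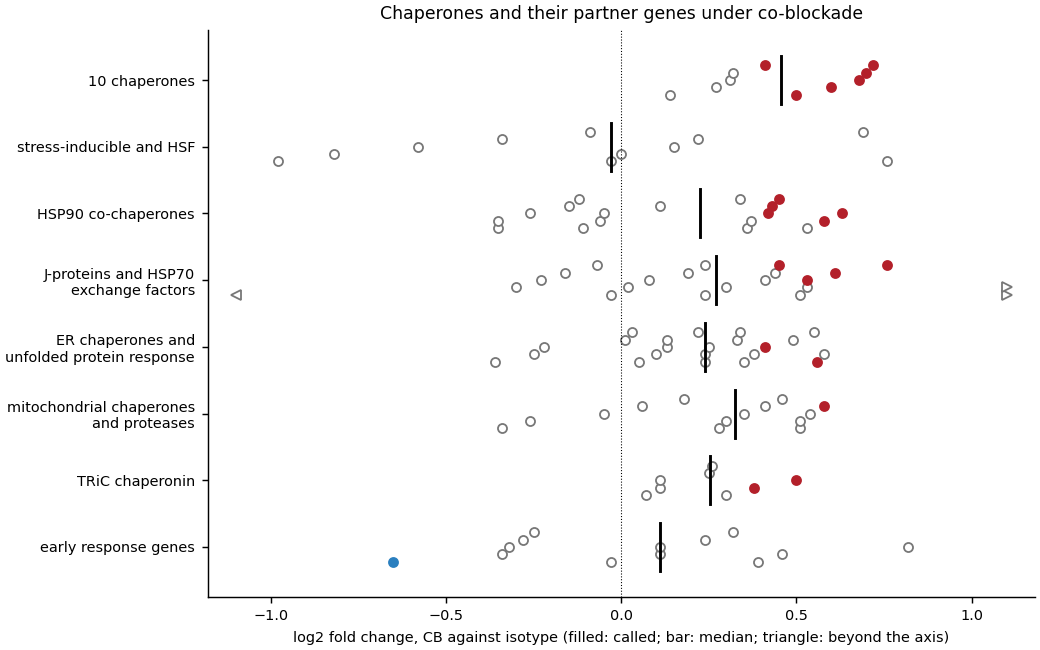
Log2 fold change of CB against isotype (horizontal axis) for each tested gene of the 10 chaperones, of 6 lists of partner genes and of a list of early response genes. Filled points were called across all genes, black bars are medians, and 3 genes beyond 1.1 on either side are drawn as triangles. The list named stress-inducible holds no call, and its median of -0.03 equals the value of *Hspa1a*, a gene with few reads. *Hsp90aa1*, which cells also raise under stress, is drawn with the 10 chaperones. The other partner lists have medians of 0.23 to 0.33.

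Spleens were digested at 37°C before sorting in all groups, and a list of early response genes that tissue handling is known to raise was counted beside the chaperones. Of its 13 tested genes 0 were called higher and 1 lower (*Ier2*, -0.65), with a median of 0.11 between CB and isotype. The shares of all genes were 2.33% called higher and 1.96% called lower. The cells had also been restimulated with peptide before sorting, so handling and restimulation cannot be told apart in this list. The part of tissue handling in the chaperone values was not tested.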

How the data were processed

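The authors trimmed the 3′ reads of each library with Cutadapt 1.18, mapped them to GRCm38 with STAR 2.6.1a and deposited uniquely mapped reads per gene from featureCounts 1.6.4 as raw counts (versions per the submitters' processing notes), without normalization and without molecular identifiers. The annotation release is not given in the sources used here. The 114 spike-in transcripts (0.719% to 1.29% of reads) were left out, and GENCODE vM21 named 52073 of 56691 genes. All columns were used (0 unused). The deposited rlog table was not used.

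edgeR 4.0.16 in R 4.3.3 fitted the 4 group means to all 12 samples (TMM, genes with at least 30 reads summed over samples, quasi-likelihood tests, Benjamini-Hochberg over 15138 genes, threshold 0.05 on the adjusted p, prior count 0.125), after tests on simulated data. "Called" means past that threshold. DESeq2 1.42.0 and other settings were alternatives. The chaperones, lists and rules were chosen with earlier results of these data known. Named besides the 10 are *Hsf1*, *Hspa1a*, *Hspa1b*, *Hspb1* and *Dnajb1*, called list genes (at most 6 per list), and the 5 genes of at least 10 CPM whose log2 CPM (pseudocount 1) correlates best with the chaperones. Genes with 0 reads, *Ier2*, *Hsf2*, *Hsbp1* and *Dnajb6* were named after values were seen. Copies were sought with BLAST. Libraries within groups differed by more than sampling noise. Per the study's methods mice were allotted at random among same-sex littermates. Which mice were littermates is not given in the sources used here. The p-values and SEs of edgeR rest on 1 spread per gene between mice within groups. The 4 groups of 3 mice share this spread, and it is moderated across genes.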

Additional observations from a re-analysis of the deposited data

How the results depend on the processing

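Of 1530 log2 fold changes of the chaperones under the alternatives, 1528 moved by less than the spread between mice and 2 moved further. No called value changed sign, but of 70 pairs of chaperone and comparison 12 that were not called held values on both sides of 0 (from -0.13 to 0.15), none of them for CB against isotype. Their CPM moved further in 40 of 160 values. Of 308 tests of called list genes, 64 no longer passed and 0 reversed. The cause of the changes below was not tested. In DESeq2's Wald test the chaperones called were 6 for CB against anti-Lag3, 3 for anti-PD-L1 against isotype and 1 for anti-Lag3 against isotype, TRiC gave 4, and all genes gave 280 for CB against anti-Lag3, 178 for CB against anti-PD-L1, 56 and 9 for anti-PD-L1 and anti-Lag3 against isotype, 10 between these antibodies and 5 for the interaction. Tested against a log2 fold change of 0.2, DESeq2 called 1 chaperone for CB against anti-Lag3 and 0 against anti-PD-L1, 1 J-protein or exchange factor and 0 HSP90 co-chaperones, ER, mitochondrial and TRiC genes, and all genes gave 233, 41 and 18 for CB against isotype, anti-Lag3 and anti-PD-L1, 11 and 2 for anti-PD-L1 and anti-Lag3 against isotype, 8 between these antibodies and 2 for the interaction. edgeR against 0.2 called 1 and 0 chaperones for CB against anti-Lag3 and anti-PD-L1, 1 HSP90 co-chaperone, 1 ER gene and 1 TRiC subunit, and all genes gave 364, 39 and 3 for CB against isotype, anti-Lag3 and anti-PD-L1 and 2 for anti-PD-L1 against isotype. Without the filter on low counts, all genes gave 252 and 150 for CB against anti-Lag3 and anti-PD-L1, 40 and 14 for anti-PD-L1 and anti-Lag3 against isotype, 2 between these and 10 for the interaction. With only the groups compared in the fit, 1 chaperone and 4 genes were called for CB against anti-PD-L1, 3 genes for anti-PD-L1 against isotype and 1 between the antibodies.

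Mice were sorted in batches of 4, and the study attributes its second principal component largely to effects of batch sorting. No source used here ties the replicate numbers to these batches, and the main fit holds no batch term. Samples of the same number correlated by -0.0387 to 0.301 in their deviations from the group means (18 pairs, median 0.1285, 11 over 0.1), those of different numbers by -0.262 to 0.176 (36 pairs, median -0.06255). Of 12 samples 8 correlated best with their own number, a hint from the data and not from the design, and the numbers were not taken as pairs because not every pair was over 0.1. With the replicate block 8 chaperones were called for CB against isotype (*Hspa8* and *Hspd1* added), 5 against anti-Lag3 (*Hspa5* and *Hspa9* added) and 1 for anti-PD-L1 against isotype (*Hsp90aa1*). Calls also rose over all genes, to 843 for CB against isotype from 649 in the main fit. The other counts over all genes with the block were 208 and 137 for CB against anti-Lag3 and anti-PD-L1, 23 and 9 for anti-PD-L1 and anti-Lag3 against isotype and 4 for the interaction. With the samples numbered 1 left out, chosen after seeing the data, 0 HSP90 co-chaperones, ER and mitochondrial genes and 1 TRiC subunit were called, and all genes gave 330, 47 and 25 for CB against isotype, anti-Lag3 and anti-PD-L1 and 1 for each antibody against isotype. Leaving out 1 mouse at a time gave 5 to 6 chaperones for CB against isotype, 0 to 2 against anti-PD-L1 and 2 to 3 against anti-Lag3. All genes then gave 394 to 705, 4 to 57 and 42 to 125 in these comparisons, fewest without CB mouse 3, 0 to 10 and 0 to 1 for anti-PD-L1 and anti-Lag3 against isotype, 0 to 1 between the antibodies and 0 to 2 for the interaction. The lists gave 1 to 5 HSP90 co-chaperones (fewest without CB mouse 1), 3 to 4 J-proteins and exchange factors, 1 to 2 ER genes and 1 to 2 TRiC subunits.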

Other observations

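The genes whose pattern over the 12 samples was most like the mean z score of the 10 chaperones were *Nop2* (Pearson r = 0.964), *Naa50* (0.931), *Psmd7* (0.928), *Mettl16* (0.923) and *Nolc1* (0.921), among 7339 genes with a mean of at least 10 CPM. The samples share the 4 treatments, so these are descriptions of 1 design and carry no p. *Nop2*, an rRNA methyltransferase, was at 44.8 ± 2.46 CPM in isotype, 52.1 ± 7.48 with anti-Lag3, 59.7 ± 4.19 with anti-PD-L1 and 95.9 ± 6.34 with CB (SD, n = 3). *Psmd7*, a subunit of the proteasome lid, was at 283.2 ± 27.0, 333.0 ± 17.5, 350.9 ± 11.2 and 470.7 ± 21.3 CPM in the same order. *Nolc1*, a nucleolar phosphoprotein, was at 113.9 ± 19.2, 154.4 ± 5.36, 161.8 ± 10.6 and 248.7 ± 13.9 CPM. Within the set, the correlation of a chaperone with the mean of the other 9 over the 12 samples was highest for *Hspe1* (0.94), *Hspa5* (0.921) and *Hsp90aa1* (0.877), and lowest for *Hsp90b1* (0.533) and *Dnaja1* (0.525).

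Among the partner genes with a RefSeq promoter window, the ER stress element was present in 5 of 18 genes of the ER list and in none of the other lists, against 0.137% of all genes. Runs of 3 heat shock units were present in 1 of 16 HSP90 co-chaperones (*Chordc1*) and 1 of 17 J-proteins and exchange factors (*Dnajb6*). In the list named stress-inducible they were in 0 of the 12 genes with a window, 7 of which held the 2-unit core.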
